A study of Homo sapiens with 6 samples.

Results

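The neuron navigator family comprises the genes NAV1, NAV2 and NAV3, which were 3 of the 15953 genes with a log2 CPM value (reads of a gene scaled to a common library size, on the log2 scale). The family was chosen by the log2 fold change of NAV2, which was among the largest rises after STIL knockdown, and the other members were taken by family name. The difference of NAV2 is therefore given as a description with no test, and NAV1 and NAV3 were looked at with that contrast already known. The RNA came from EJ, an established line of human bladder cancer cells, with 3 libraries of stable shSTIL cells and 3 of shNC cells. STIL encodes a protein required for centriole duplication. The shSTIL cells carried a lentiviral short hairpin RNA against STIL and the shNC cells a negative control lentivirus. The hairpin sequence, the number of hairpins and whether the lines were single clones are not given in the sources used here. The labels do not say that the 3 libraries of a group came from separate cultures, so the p-values measure only the spread between these libraries, which may be technical.

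Navigators are large proteins that bind microtubules and gather at their growing plus ends. They are the human relatives of UNC-53, which guides cell and axon outgrowth in the nematode, and they carry an AAA ATPase domain. NAV1 binds end-binding (EB) proteins and the guanine nucleotide exchange factor TRIO, NAV2 was found as a gene induced by retinoic acid in neuroblastoma cells, and NAV3 is also expressed mainly in the nervous system.

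The estimated reads of the 15953 genes summed to 16214772 to 16901634 in each library. STIL, the targeted gene, had a log2 CPM of 5.98 to 6.10 in shNC and of 4.01 to 4.06 in shSTIL libraries, which left 25.2% of the control level. The labelled cell type was checked against marker lists. Of 16 measured urothelial and epithelial markers, 5 reached a mean log2 CPM of 1: the keratins KRT18 (9.30), KRT8 (8.21) and KRT7 (6.75) and the transcription factors PPARG (4.41) and FOXA1 (3.06). The other 11 lay between 0.72 for UPK1A and -2.96 for KRT5, where a gene with no reads is at -3.05, and included the cadherin CDH1 at -2.12. Of 8 measured mesenchymal markers, 5 reached a mean log2 CPM of 1, from 1.495 for CDH2 to 10.18 for VIM, and SNAI2, SPARC and TWIST2 lay at -1.43, -2.05 and -2.95.

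All 3 navigators lie on plus strands of GRCh38. NAV1 runs on chromosome 1 from 201622885 to 201826969, NAV2 on chromosome 11 from 19350724 to 20121598, and NAV3 on chromosome 12 from 77324641 to 78213008, in GENCODE 29. The principal transcripts have 30, 38 and 39 exons and coding regions of 1877, 2365 and 2363 codons for NAV1, NAV2 and NAV3. Only part of the 50-base windows of the transcripts was compared: 7846 for NAV1, 8845 for NAV2 and 5537 for NAV3. None of these was shared by any pair of members. Because the other windows were left out, this cannot show whether reads of that length could be divided between members. The annotation places 6, 10 and 4 other genes that overlap the gene bodies in whole or in part, among them NAV2-IT1 and the antisense genes NAV2-AS1 to NAV2-AS5. None of these 20 had a value in the tables used here, and the sources do not say whether counting used strand, so reads of an antisense partner cannot be told apart from those of the navigator.

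RefSeq gives several start sites for each member, and all windows of 300 bases around the starts of NAV2 and NAV3 are shown because these members changed most. Each window holds 250 bases before the start and 50 after it, 5′ to 3′ on the plus strand of GRCh38.p14. Capitals mark the CCAAT box, the core of a binding sequence of the factor NF-Y, on either strand (CCAAT or ATTGG). The windows are chr11:19344986-19345285, chr11:19712587-19712886 and chr11:20022306-20022605 for NAV2, and chr12:77830644-77830943 and chr12:78036364-78036663 for NAV3.
NAV2 start 1: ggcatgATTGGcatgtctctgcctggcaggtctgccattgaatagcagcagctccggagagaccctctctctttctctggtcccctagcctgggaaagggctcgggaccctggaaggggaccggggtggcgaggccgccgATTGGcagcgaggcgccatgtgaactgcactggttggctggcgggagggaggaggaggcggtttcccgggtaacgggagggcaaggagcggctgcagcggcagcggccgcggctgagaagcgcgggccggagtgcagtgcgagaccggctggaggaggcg
NAV2 start 2: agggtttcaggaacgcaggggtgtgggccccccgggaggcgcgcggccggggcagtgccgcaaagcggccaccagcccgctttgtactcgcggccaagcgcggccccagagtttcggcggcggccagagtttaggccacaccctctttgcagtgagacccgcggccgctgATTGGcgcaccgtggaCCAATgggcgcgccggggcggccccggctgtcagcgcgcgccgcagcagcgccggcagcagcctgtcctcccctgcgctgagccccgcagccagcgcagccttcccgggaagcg
NAV2 start 3: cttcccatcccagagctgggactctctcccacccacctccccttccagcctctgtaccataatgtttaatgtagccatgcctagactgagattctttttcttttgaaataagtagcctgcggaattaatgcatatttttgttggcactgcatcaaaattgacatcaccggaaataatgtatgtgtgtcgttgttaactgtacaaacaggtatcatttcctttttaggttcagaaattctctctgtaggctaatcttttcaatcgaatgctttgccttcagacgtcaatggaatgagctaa
NAV3 start 1: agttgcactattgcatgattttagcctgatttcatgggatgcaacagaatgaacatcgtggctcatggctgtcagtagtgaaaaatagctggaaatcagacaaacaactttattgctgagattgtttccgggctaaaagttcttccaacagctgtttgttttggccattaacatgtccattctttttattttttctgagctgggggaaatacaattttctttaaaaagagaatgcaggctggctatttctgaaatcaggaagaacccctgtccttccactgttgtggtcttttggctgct
NAV3 start 2: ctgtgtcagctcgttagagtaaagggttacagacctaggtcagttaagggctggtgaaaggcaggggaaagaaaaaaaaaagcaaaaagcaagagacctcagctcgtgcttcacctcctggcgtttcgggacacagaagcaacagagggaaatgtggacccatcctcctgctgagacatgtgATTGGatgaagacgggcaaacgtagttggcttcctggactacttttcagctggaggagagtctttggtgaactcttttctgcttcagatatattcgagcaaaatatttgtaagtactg

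The NAV2 windows differed among themselves, with 23 CpG and 68% GC at start 1, 37 CpG and 74.3% GC at start 2, and 5 CpG and 41% GC at start 3. The NAV3 windows held 2 CpG with 40% GC and 7 CpG with 46.7% GC. The median was 14 CpG over 35116 windows of the same length, so starts 1 and 2 of NAV2 were above it, and start 3 of NAV2 and both NAV3 windows below it. The NAV1 windows, which are not printed, held 24 and 21 CpG. CCAAT occurred 2 times in each of starts 1 and 2 of NAV2 and 1 time in start 2 of NAV3, against 34.6% of all windows with at least 1 match. GGGCGG, the core of the SP1 motif, occurred 1 time in start 2 of NAV2 (45% of all windows). AGGTCA, a nuclear receptor half-site, occurred 1 time in start 2 of NAV3 (13.8% of all windows). Both strands were searched. A match is a description of the letters. The tables sum reads over each gene and so do not tell which start was used.

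NAV2 was the member with the largest difference, and NAV3 and NAV1 were also higher in shSTIL cells. For each of the 3 members every shSTIL value exceeded every shNC value, which held for 29.9% of all genes (60.3% were without overlap in either direction). The background of calls was high: 47.1% of all genes passed an adjusted p under 0.01 in either direction and 23.5% passed it with higher and 23.6% with lower values in shSTIL cells. A log2 fold change above 1 with such a call was rarer, at 2.86% of all genes, and NAV2 and NAV3 lay above 1. The choice of the family used this contrast, so nothing is read from these counts.

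NAV2, a navigator that takes part in neurite outgrowth, had a log2 CPM of 4.98, 4.995 and 4.96 in the shNC libraries and of 7.25, 7.04 and 7.14 in the shSTIL libraries. All 3 shSTIL values were above all shNC values, and 2.04 separated the closest values of the groups. These values rest on 495 to 518 reads in each shNC library and 2258 to 2600 in each shSTIL library. The means were 4.98 ± 0.02 and 7.14 ± 0.11 (SD, n = 3 each). The log2 difference was 2.16 (standard error 0.05), or 4.47-fold. When the 9943 genes whose mean log2 CPM reached 3 were ordered by their rise, NAV2 was at place 4. Its nearest neighbours in this order were ZNF862 before it, at 2.16, and CD274, the immune checkpoint ligand PD-L1, after it, at 2.15. These values lie closer together than their standard errors.

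NAV3 rose next, with a log2 CPM of 5.59, 5.63 and 5.57 in shNC libraries and of 6.73, 6.69 and 6.73 in shSTIL libraries. Replicates lay close together and the groups were 1.06 apart at their nearest values. There were 752 to 806 reads in shNC and 1771 to 1820 in shSTIL libraries. NAV3 rose by 1.12 on the log2 scale (standard error 0.04; adjusted p = 5.2e-11 with limma), or 2.18-fold, from a mean of 5.60 ± 0.03 to 6.72 ± 0.03 (SD, n = 3 each). Exact permutation of the library labels (20 ways, two-sided) gave p = 0.1, the smallest it allows with 3 against 3. NAV3 was at place 80 in the same order of 9943 genes.

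NAV1, the EB- and TRIO-binding member, had the smallest difference. Its log2 CPM was 3.63, 3.46 and 3.48 in shNC libraries and 3.84, 3.75 and 3.87 in shSTIL libraries. The shSTIL values were all higher, but the closest values were only 0.12 apart. NAV1 had 176 to 196 reads in shNC and 229 to 247 in shSTIL libraries. NAV1 rose by 0.30 on the log2 scale (standard error 0.09; adjusted p = 0.00889 with limma), or 1.23-fold, from 3.52 ± 0.09 to 3.82 ± 0.07 (SD, n = 3 each), with an exact two-sided permutation p of 0.1. The call was lost when any library but shNC replicate 1 was left out, where the adjusted p ranged from 0.00894 to 0.0444 over the 6 omissions. NAV1 was at place 2284 of 9943.

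**Figure D1:**
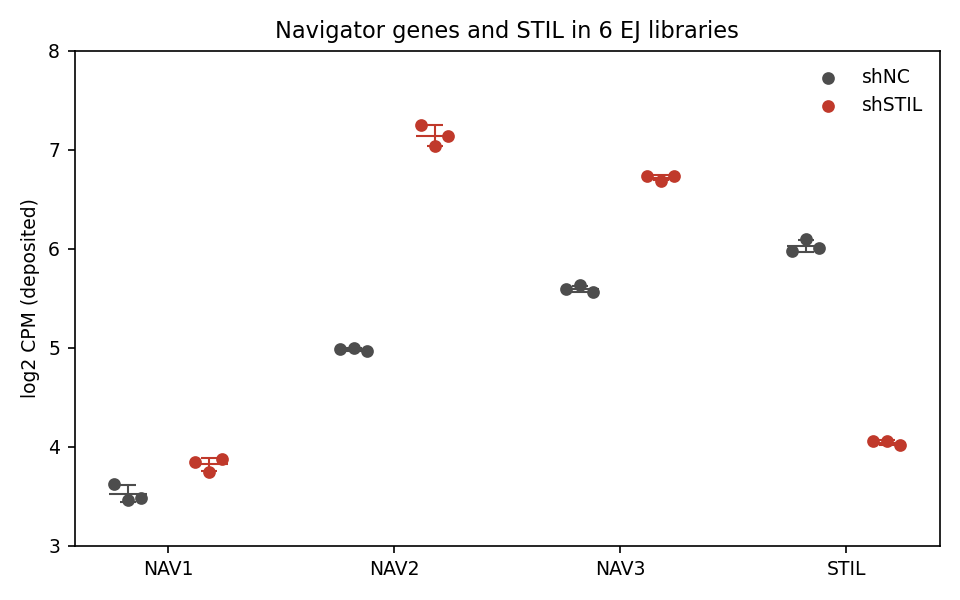
Log2 CPM (vertical axis) of NAV1, NAV2, NAV3 and STIL in the 3 shNC and 3 shSTIL libraries, with 1 point per library, the mean as a dash and the SD as bars. The NAV2 points lie at 4.96 to 4.995 in shNC and 7.04 to 7.25 in shSTIL libraries, and the STIL points move the other way.

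Levels of different genes were compared only per length, as CPM per kilobase of the principal transcript. In shNC cells NAV3 was the most abundant navigator at 6.53 ± 0.15 CPM per kb, followed by NAV2 at 2.95 ± 0.032 and NAV1 at 0.871 ± 0.055 (SD, n = 3 each). The ranges of the 3 genes did not overlap. In shSTIL cells NAV3 was at 14.2 ± 0.27, NAV2 at 13.2 ± 0.97 and NAV1 at 1.07 ± 0.049. NAV2 and NAV3 then spanned 12.3 to 14.2 and 13.9 to 14.4 CPM per kb, so their ranges overlapped, and their order depended on the transcript length used. Per coding length, the ratio of NAV2 to NAV3 was 1.34 in shSTIL and 0.652 in shNC cells.

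The summed level of the family was 10.2 to 10.5 CPM per kb in shNC libraries and 27.3 to 29.7 in shSTIL libraries. NAV2 made up 28.5% ± 0.18 of the sum in shNC and 46.3% ± 1.43 in shSTIL cells (SD, n = 3 each). The share of NAV3 was 63.1% ± 0.59 and 49.9% ± 1.37, and that of NAV1 was 8.41% ± 0.53 and 3.75% ± 0.11, in the same order. NAV1 and NAV3 thus held smaller shares at higher levels of their own. The log2 ratio of NAV2 to NAV3 was -1.17 to -1.13 in shNC libraries and -0.18 to -0.016 in shSTIL libraries. These shares and ratios rest on the principal transcript length. With coding or longest transcript length the unlogged shSTIL ratio of NAV2 to NAV3 was 1.34 or 1.18, so NAV2 then held the larger share. In bulk RNA, fewer cells of a type and less RNA per cell cannot be told apart.

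**Figure D2:**
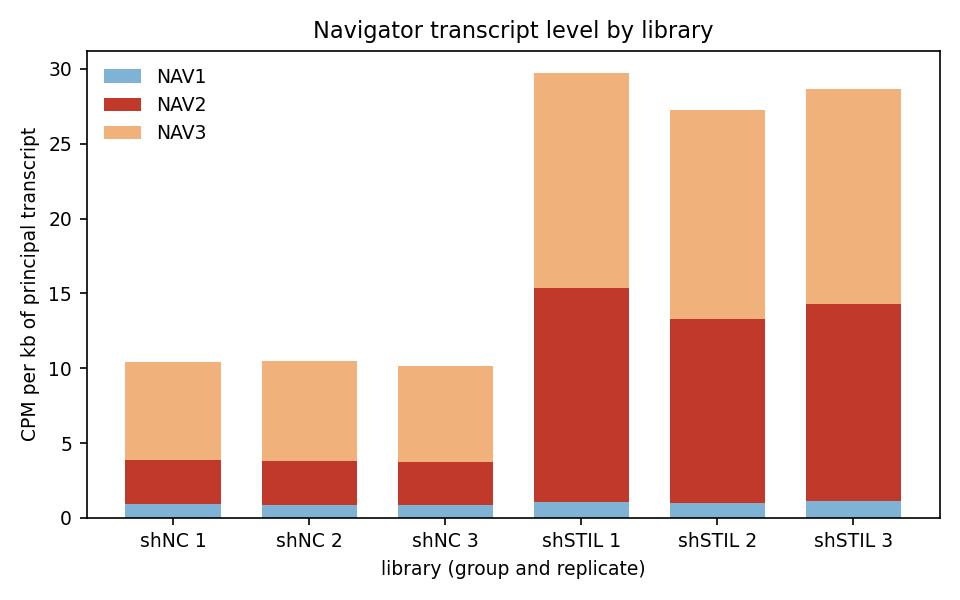
Stacked bars of NAV1, NAV2 and NAV3 in CPM per kilobase of the principal transcript (vertical axis), with 1 bar for each library. The 3 shSTIL bars reach 27.3 to 29.7 and the 3 shNC bars 10.2 to 10.5, and the NAV2 segment grows most.

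Proteins that track growing microtubule ends are the setting in which navigators act. Of 42 listed genes, 41 were measured, of which 15 rose, 12 fell and 14 did not pass the test. This is 65.9% called, against 61.9% of the genes whose mean log2 CPM reached 1 and 47.1% of all genes. The median log2 fold change was 0.14, beside 0.0052 over all genes. MAPRE1, MAPRE2 and MAPRE3, the EB proteins on which plus-end tracking depends, fell by 0.27, 1.05 and 0.41 on the log2 scale, with limma adjusted p of 3.0e-06, 7.3e-09 and 0.00265. TACC2, a centrosomal coiled-coil protein, rose by 1.00 and CLIP1, a CAP-Gly plus-end protein, by 0.80. TTBK2, a kinase needed to start cilium assembly, rose by 0.73. The mitotic motor KIF11 fell by 0.74 and the spindle protein TACC3 by 0.71.

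Navigator partners and guidance genes moved in both directions. Of 36 listed genes 33 were measured, of which 14 rose, 9 fell and 10 did not pass, or 69.7% called against 47.1% of all genes and 61.9% of those whose mean log2 CPM reached 1. The median log2 fold change was -0.02. TRIO, the exchange factor bound by NAV1, rose by 0.60 (limma adjusted p = 9.4e-09). ABI1, an adaptor of actin regulation, rose by 0.24 (limma adjusted p = 7.6e-04). YWHAE, the 14-3-3 protein linked to NAV2, fell by 0.36 (limma adjusted p = 3.9e-07). The kinase ABL2 rose by 0.94, the guidance receptor ROBO3 by 0.75 and the netrin NTN4 by 0.52. SLIT2, a ligand of ROBO receptors, fell by 0.50 and ABI2 by 0.45.

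Retinoic acid genes were examined because NAV2 is known as a retinoic acid induced gene. Of 35 listed genes 27 were measured, of which 6 rose, 7 fell and 14 did not pass, or 48.1% called against the same 47.1% and 61.9%, with a median log2 fold change of -0.0053. ALDH1A3, which makes retinoic acid, fell by 1.94, and RDH11, a retinal reductase, by 1.17. CRABP2, which carries retinoic acid to the nucleus, fell by 0.71 and the retinaldehyde reductase DHRS3 by 0.65. The retinoid receptor gene RXRB rose by 0.56. The number of called genes in this list ranged from 7 to 10 when 1 library was left out. Called genes over all 15953 also fell in those fits, from 7509 to between 4900 and 5638.

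Other microtubule-binding proteins moved in both directions. Of 35 listed structural microtubule-associated genes 31 were measured, of which 7 rose, 12 fell and 12 did not pass, or 61.3% called against 47.1% of all genes and 61.9% of those whose mean log2 CPM reached 1. The median log2 fold change was -0.12. MAP1A and MAP1B, which stabilise microtubules in neurons, fell by 2.60 and 0.82, and MAPT, which encodes tau, by 0.61. STMN3, a tubulin-binding stathmin, fell by 0.86, EML3 by 0.63 and FIGNL1, an AAA ATPase, by 0.96.

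Neuronal markers were mostly near the floor of the measurement. Of 14 listed markers 9 were measured, 6 of these had at most 3 reads in every library, and 1 passed the test. That gene was TUBB3, the neuronal beta-tubulin, which fell by 1.75. The share called was 11.1%, against 47.1% of all genes and 61.9% of those whose mean log2 CPM reached 1. The summed CPM of the list was 316 to 345 in shNC and 95.1 to 106 in shSTIL libraries, of which TUBB3 alone made up 98.3% to 98.8% and 95.6% to 96.8%. Of 16 measured urothelial and epithelial markers (31.2% called), KRT7 and PPARG rose by 0.49 and 0.26, and KRT8, FOXA1 and UPK1B fell by 0.70, 0.53 and 1.12. The summed CPM of this list was 1106 to 1165 in shNC and 999.97 to 1033 in shSTIL libraries. Of 8 measured mesenchymal markers (37.5% called), ZEB2 rose by 0.74, and FN1 and VIM fell by 1.19 and 0.68. Their summed CPM was 1574 to 1615 and 990 to 1008. The part of these shifts in the navigator values was not tested.

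**Figure D3:**
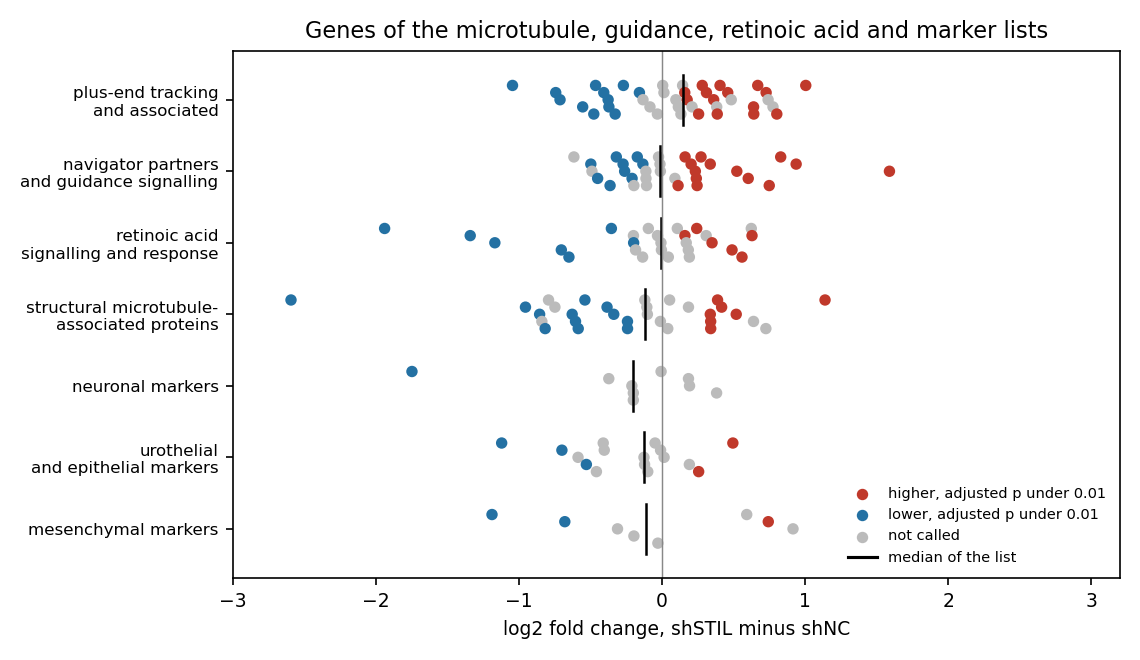
Log2 fold change (horizontal axis, shSTIL minus shNC) of each measured gene in 7 lists, coloured by the limma call at an adjusted p under 0.01, with a black line at the median of each list. Calls lie on both sides of 0 in each list except the neuronal markers, where TUBB3 alone was called. The lowest points belong to MAP1A at -2.60 and ALDH1A3 at -1.94.

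Genes near the navigators were examined to see whether the higher levels extended along the chromosomes. Of 151 annotated genes within 1 Mb, 45 were measured, of which 10 rose, 16 fell and 19 did not pass, or 57.8% called, which lies between the 47.1% of all genes and the 61.9% of genes whose mean log2 CPM reached 1. The median log2 fold change of these neighbours was -0.06. Around NAV2, 4 of 13 rose and 4 fell, or 61.5% called. LDHA, which encodes lactate dehydrogenase A and lies 942.3 kb before NAV2, fell by 2.25, UEVLD, whose protein resembles ubiquitin-conjugating enzymes, by 0.87 and the palmitoyltransferase gene ZDHHC13 by 0.49. The general transcription factor gene GTF2H1 rose by 0.77 and the methyltransferase gene PRMT3 by 0.58. E2F8, an atypical E2F repressor 109.1 kb before NAV2, fell by 1.28 (limma adjusted p = 4.2e-09).

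Around NAV3, 2 of 6 neighbours rose and 2 fell, or 66.7% called against 47.1% of all genes and 61.9% of those whose mean log2 CPM reached 1. E2F7, the closest relative of E2F8, lies 259.1 kb before NAV3 and fell by 1.13 (limma adjusted p = 4.4e-10). The LIM domain gene CSRP2 fell by 1.66, and OSBPL8, a lipid transfer protein gene, rose by 0.26. SYT1, which encodes a synaptic calcium sensor, had no reads in any shNC library and a log2 CPM of -2.48 to -1.09 in shSTIL libraries, too low for a fold.

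Around NAV1, 4 of 26 neighbours rose and 10 fell, or 53.8% called. Over all genes 47.1% were called, 23.5% higher and 23.6% lower. Among genes whose mean log2 CPM reached 1, 61.9% were called, 30.5% higher and 31.4% lower. IPO9, which encodes a nuclear import receptor and begins 2.2 kb after NAV1, fell by 1.24 (limma adjusted p = 2.6e-11). The epithelial transcription factor gene ELF3 fell by 1.54 and the ubiquitin-conjugating enzyme gene UBE2T by 1.04. INAVA and IGFN1 fell by 1.55 and 1.14 at mean log2 CPM values under 1. LGR6 had no reads in any shNC library and a log2 CPM of -2.08 to -1.49 in shSTIL libraries. CSRP1, a relative of CSRP2 chosen after its value was seen, rose by 0.59.

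**Figure D4:**
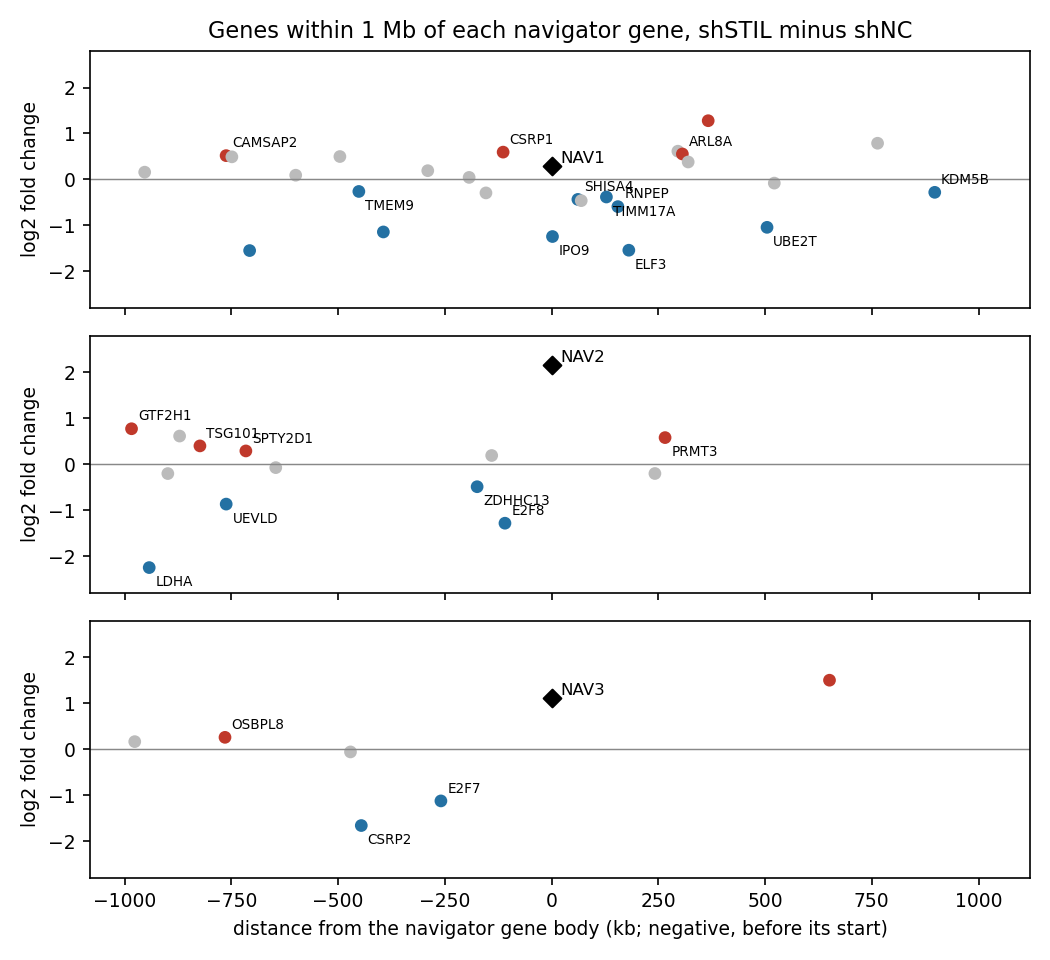
Log2 fold change (vertical axis, shSTIL minus shNC) of each measured gene against its distance in kb from NAV1, NAV2 or NAV3 (horizontal axis), with the navigator as a black diamond and other points red where higher, blue where lower and grey where not called. Red and blue points are mixed in each panel. The unnamed coloured points have a mean log2 CPM under 1, among them LGR6 and SYT1, which had no reads in shNC libraries.

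The genes whose log2 CPM profiles over the 6 libraries were nearest to each member were ranked by Euclidean distance after centring on each gene's mean, among 11318 genes. NAV2 was nearest to PRKCE, a protein kinase C gene, at a distance of 0.19, then to CD274 at 0.20, the macrophage growth factor gene CSF1 at 0.24, ZNF862 at 0.25 and RPL22L1 at 0.26. NAV3 was nearest to ERRFI1, an inhibitor of EGF receptor signalling, at 0.060, then to CCN2, which encodes connective tissue growth factor, at 0.075, CRIM1 at 0.085, RGMB at 0.090 and PPP1R15A at 0.092. NAV1 was nearest to C14orf93 at 0.044, FADS3 at 0.058, SEMA4C at 0.062, ZBTB4 at 0.065 and RAI1 at 0.071. These distances describe 6 libraries in 2 groups, and any gene with a like difference between the groups is near by this measure.

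NAV2 and NAV3 share a genomic span of 770.9 and 888.4 kb, and NAV1 spans 204.1 kb. Among 11101 genes whose mean log2 CPM reached 1 and whose span is annotated, 0.36% were longer than NAV2, 0.261% longer than NAV3 and 6.69% longer than NAV1. The comparison by span was chosen after the values were seen. Of the 117 genes of 500 kb and more, 47% were higher and 19.7% lower in shSTIL cells, with a median log2 fold change of 0.25. Of the 3837 genes under 20 kb, 24.3% were higher and 36.9% lower. The corresponding shares over all 11319 genes at this level were 30.5% and 31.4%. NAV2 was at place 2 and NAV3 at place 6 of the 117 by fold change. NAV2 was chosen for its rise, so its place here repeats that choice.

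**Figure D5:**
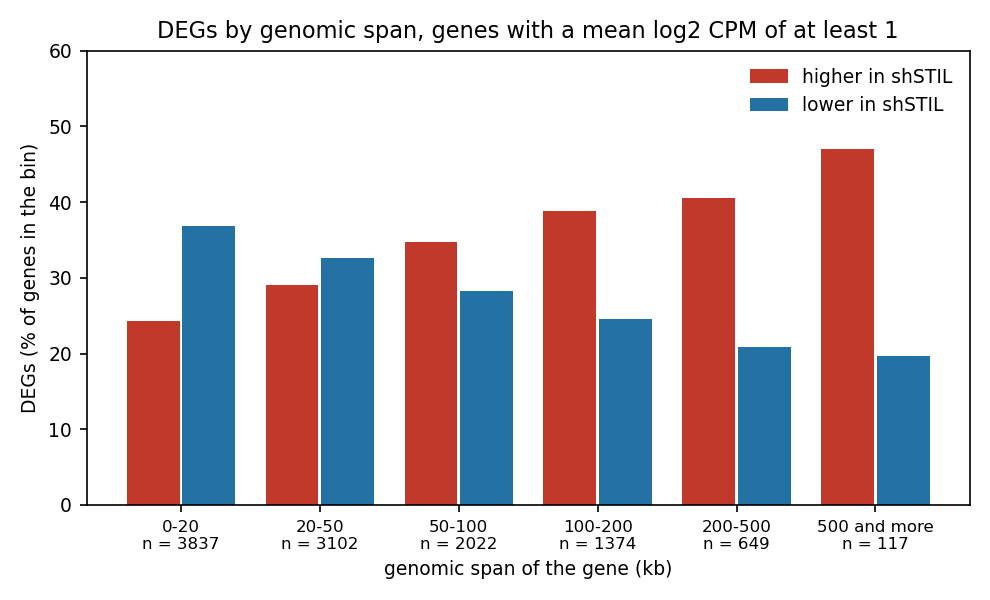
Share of genes called higher (red) or lower (blue) in shSTIL cells (vertical axis, percent of the genes in each bin) by genomic span in kb (horizontal axis, unequal bins with n below). The share of higher genes goes from 24.3% in the shortest to 47% in the longest bin, and that of lower genes from 36.9% to 19.7%.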

How the data were processed

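Navigator transcripts were measured by RNA-seq in 3 shNC and 3 shSTIL libraries of EJ cells, grouped by the sample labels. The authors sequenced on the BGISEQ-500, cleaned the reads with SOAPnuke, aligned these by Bowtie2 against transcripts and estimated gene counts with RSEM. The submitters' processing notes name hg38, Bowtie2, RSEM and limma, and versions are not given in the sources used here. The deposited tables used here were log2 CPM of 15953 genes for 6 libraries, computed by the authors with edgeR, and unnormalised estimated counts of 15957 genes for 4 libraries. Column headings of the tables name siRNA where the labels name short hairpin RNA. RSEM can divide reads between similar transcripts. The log2 CPM carry a prior count, so fold changes of genes with few reads are understated.

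Reads were recovered from the spacing of the log2 CPM, where 87.1% to 87.4% of values came out within 0.001 reads of a whole number. They differed from the deposited estimated counts by at most 0.00204 reads. Intervals of counts were not used, and the read numbers of NAV1 limit its precision most.

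Groups were compared over all genes with limma 3.58.1 (eBayes with a mean-variance trend, no replicate block) in R 4.3.3, two-sided, with Benjamini-Hochberg adjustment and a call at an adjusted p under 0.01. Because log2 CPM were the only values for all libraries, edgeR 4.0.16 and DESeq2 1.42.0 on recovered reads, rounded to whole numbers, were alternatives, as were other scalings, filters and each library left out. Fits were tested on simulated data. Levels between genes were divided by the length of the GENCODE 29 principal transcript, with coding and longest transcript length as alternatives. Promoter windows came from RefSeq (GRCh38.p14), where all 3 members matched.

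Named genes were the members and STIL, the called genes of each list whose mean log2 CPM reached 1, by absolute log2 fold change (at most 6), TRIO, ABI1, YWHAE and the EB genes, called neighbours within 1 Mb (at most 6 for each member), the genes beside NAV2 in the order of rises, and the 5 nearest profiles of each member. A gene that this rule names is not reported here. Others named for a marker check or by span were chosen after their values were seen. The members and lists were chosen with earlier results of these data known.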

Additional observations from a re-analysis of the deposited data

How the results depend on the processing

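NAV2 ranged from 2.15 to 2.18 over 8 alternatives and from 2.11 to 2.21 with 1 library left out, and NAV3 from 1.11 to 1.13 over 9 alternatives and from 1.11 to 1.14 with 1 library left out, with its call kept in each. The direction of NAV1 held in each alternative, but its call was lost without the mean-variance trend (0.30, adjusted p = 0.0121), with median centring (0.29, adjusted p = 0.0113) and with DESeq2 on recovered reads (0.30, adjusted p = 0.0295). Leaving out 1 library gave 0.27 to 0.35 for NAV1. With a replicate block NAV1 was at 0.30 (adjusted p = 0.0163) and DEGs numbered 6898. The numbers do not pair the libraries: correlations of deviations were -0.12, -0.055 and -0.11, and 0 of 6 libraries correlated best with its own number.

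DEGs numbered 7509, 5855 to 8988 over 9 alternatives and 4900 to 5638 with 1 library left out, lowest without shSTIL replicate 3. Called urothelial markers went from 5 to 3 without the trend and to 3 with DESeq2, and to 2 to 3 with 1 library left out. Called genes with 1 library left out were 7 to 10 for the retinoic acid list, 21 to 24 for plus-end genes, 16 to 20 for partners, 15 to 16 for structural genes, 1 to 2 for neuronal markers, 3 for mesenchymal markers and 20 to 23 for neighbours. Fewer libraries entered these fits. The ratio of NAV2 to NAV3 was 0.652 (shNC) and 1.34 (shSTIL) per coding length, and 0.574 and 1.18 per longest transcript. NAV2 over NAV1 per coding length was 2.20 and 7.996. Depth limits NAV1 most, with 176 to 247 reads a library.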

Other observations

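Genes with long transcripts, as the navigators have, were also more often higher in shSTIL cells. Of 1233 genes with a principal transcript of 7 kb and more, 43.2% were higher and 22.3% lower, against 21.3% and 37.4% of 2535 genes under 2 kb. Within the transcripts of 7 kb and more, 50.4% of the 246 genes spanning 200 kb and more were higher, against 35.9% of the 298 genes spanning under 50 kb. All 3 navigators belong to the former group. These cuts were chosen after the values were seen, and the part of transcript length, RNA quality or mapping to a transcriptome in the navigator values was not tested.

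The other genes of 500 kb and more with a log2 fold change above 1 were HDAC9, a histone deacetylase, at 2.29, the kinase PRKCE at 2.04, the membrane adaptor ANK2 at 1.62, the cadherin CDH4 at 1.55 and THSD4 at 1.02. PRKCE was the gene nearest to NAV2 by profile, but that distance rests largely on the same fold change and is no separate link. CDH4 had a mean log2 CPM of 1.25, the lowest of these. With NAV2 and NAV3 counted, 7 of the 117 genes of this span lay above 1. The same held for 23 of 649 genes of 200 to 500 kb and 63 of 3837 under 20 kb. Over all 15953 genes, 2.86% lay above 1 with a call. NAV2 was chosen for its rise and the span cut was set with the values seen, so nothing is read from this count. In the other direction, KSR2 lay at -1.04 and MACROD2 at -1.54.

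The neighbourhoods of the navigators hold related genes. The related genes named here were picked out after their values were seen. E2F8 lies before NAV2 and E2F7 before NAV3, and each fell. Lower calls made up 23.6% of all genes and 31.4% of those whose mean log2 CPM reached 1. CSRP1 lies near NAV1, CSRP3 near NAV2 and CSRP2 near NAV3: CSRP1 rose by 0.59, CSRP2 fell by 1.66 and CSRP3 had a mean log2 CPM of -2.96. ZDHHC13 near NAV2 fell by 0.49 on the log2 scale, and ZDHHC17 near NAV3 lay at -0.06 on that scale (adjusted p = 0.376 with limma).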
